A study of Homo sapiens with 15 samples.

Results

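MondoA knockdown was set directly against MLX knockdown in PSN-1 cells, an established human pancreatic ductal adenocarcinoma line, using 6 of the 15 RNA-seq libraries of the series: 3 transfected with siRNA against MondoA (siMondoA) and 3 with siRNA against MLX (siMLX). The libraries were taken by their labels, and 3 libraries with a control siRNA (siControl) are shown beside them. Cells for all 9 libraries were grown in RPMI medium with 10% fetal bovine serum, and RNA was taken 72 hours after transfection. The other 6 libraries belong to a separate experiment with the compound SBI-477 and its vehicle DMSO. The comparison asks which transcripts changed with loss of MondoA and not with loss of MLX, or the reverse. The labels do not say whether replicates came from separate cultures, and p-values then reflect only how far these libraries scatter, which could be technical scatter. Each target was lowered with the siRNA of 1 label, and effects of an siRNA on genes other than its target cannot be told apart from effects of losing the target.

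MondoA, encoded by MLXIP, is a glucose-responsive transcription factor that binds DNA as a heterodimer with MLX at E-box elements. MLX also pairs with ChREBP (MLXIPL) and with members of the MXD family of MYC antagonists, so the partners of the 2 proteins overlap without being the same. TXNIP and ARRDC4, arrestin-domain proteins that restrain glucose uptake, are the best-known targets of the MondoA and MLX pair.

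Levels are CPM, counts relative to the library's total of reads in genes after trimmed-mean scaling, and the tests are edgeR's quasi-likelihood test with Benjamini-Hochberg adjustment over 13001 genes, called at an adjusted p under 0.05. Depth was 11227343 to 14731691 counts per library, so a floor of 3 counts lay at 0.204 to 0.267 CPM. Libraries of 1 group correlated at 0.971 to 0.992 (Pearson, log2 CPM, across genes, which are not independent). The epithelial keratins KRT8 and KRT18 were abundant in all 9 libraries (KRT8 at 531 to 1232 CPM), while CDH1, another epithelial marker, was low in siControl. Islet hormone genes INS, GCG, SST and PPY were at 0 in all 9. Library siMLX 2 stood apart from siMLX 1 and siMLX 3 in stress and inflammatory genes, as given below, and values without it are given beside the results that moved most with it.

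Each siRNA lowered its own target. MLXIP, at 12:122078722-122147347 (GRCh38, plus strand), measured 83.6, 65.8 and 88.7 CPM in siControl, 22.6, 23.4 and 15.7 CPM in siMondoA, and 62.3, 66.6 and 68.1 CPM in siMLX. MLX, at 17:42567068-42573239 (plus strand), measured 53.4, 58.8 and 53.02 CPM in siControl, 75.0, 69.6 and 68.5 CPM in siMondoA, and 11.9, 7.15 and 7.70 CPM in siMLX. In both cases the 3 libraries of the matching siRNA lay below the other 6. The direct difference, siMondoA minus siMLX, was -1.68 ± 0.17 (log2, SE; adjusted p = 0.000521) for MLXIP and 2.997 ± 0.18 (adjusted p = 3e-05) for MLX. Neither knockdown passed the test for the other target against siControl (MLX after siMondoA 0.37, adjusted p = 0.114; MLXIP after siMLX -0.27, adjusted p = 0.316).

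Directly compared, 1673 of 13001 genes differed between the knockdowns (12.9%), of which 866 were higher after siMondoA than after siMLX (6.66%) and 807 were lower (6.21%). At least a 2-fold difference was called for 241 and 263 of them. Against siControl, siMondoA changed 3532 genes (27.2%), 1849 up (14.2%) and 1683 down (12.9%), and siMLX changed 1094 (8.41%), 484 up (3.72%) and 610 down (4.69%). Blocking on the replicate number, by which siMLX and siControl libraries deviated together, gave 1815 siMLX calls. Without siMLX 2, 2970 of 13182 genes differed directly (22.5%), 1664 higher (12.6%) and 1306 lower (9.91%), and 1561 of the 1673 calls were shared (93.3%). Against siControl, the lowest counts were 1745 for siMondoA, without siControl 2, and 254 for siMLX, without siControl 1. The direct count fell to 994 without siMondoA 2, 751 without siMondoA 3, 734 without siMLX 1 and 670 without siMLX 3.

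Genes were then classed by the 3 tests together. The class with a direct difference and a change with siMondoA but none called with siMLX held 978 genes, 519 that fell and 459 that rose with siMondoA. The mirror class, changed with siMLX and not called with siMondoA, held 230 genes, 150 that fell and 80 that rose with siMLX. A further 16 genes changed in opposite directions, and 535 changed the same way with both siRNAs without a called direct difference. These classes share the siControl libraries, and a missing call is not evidence that a gene did not respond. Without siMLX 2 the 3 classes held 1863, 245 and 39 genes, with 911, 159 and 12 shared. The siMondoA class held 488 genes without siMondoA 2, 405 without siMondoA 3, 423 without siMLX 1, 439 without siMLX 3, and 638, 522 and 615 without siControl 1, 2 and 3. The siMLX class held 119 genes without siMondoA 3, 126 without siMLX 1, 76 without siMLX 3, and 86, 97 and 124 without siControl 1, 2 and 3.

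**Figure D1:**
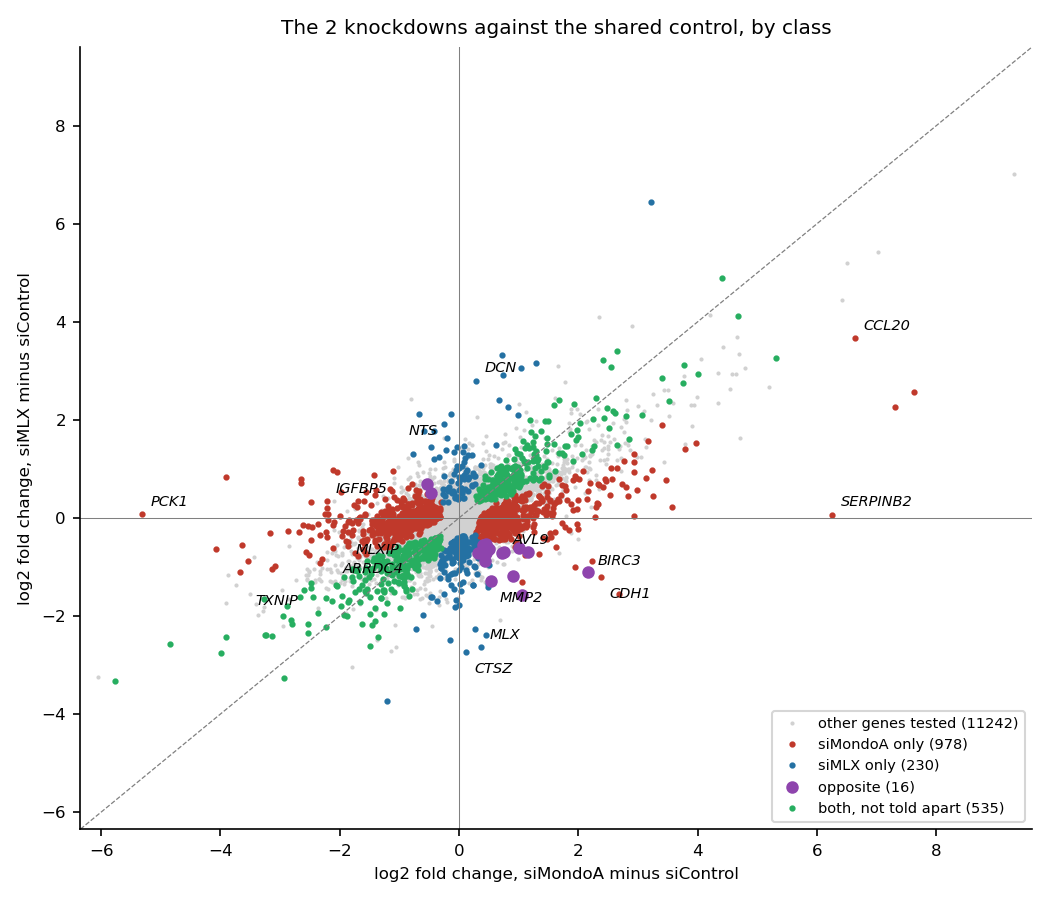
Log2 fold change after siMondoA (x axis) and after siMLX (y axis), each against the same 3 siControl libraries, for the 13001 genes tested. Points are coloured by class, the dashed line marks equal change, and PCK1 and SERPINB2 lie on the horizontal axis while NTS, CTSZ and DCN lie near the vertical one.

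TXNIP and ARRDC4 fell with siMondoA and did not pass the direct test. TXNIP measured 783, 786 and 519 CPM in siControl, 158, 230.3 and 57.6 CPM in siMondoA, and 172, 511 and 93.3 CPM in siMLX. Levels in the knockdown groups overlapped, and siMLX 2 was the highest of the 6. Against siControl, TXNIP gave -2.23 after siMondoA (adjusted p = 0.0221) and -1.43 after siMLX (adjusted p = 0.154), and with the replicate block the siMLX change was called (-1.78, adjusted p = 0.00748). The direct difference for TXNIP was -0.80 (95% interval -2.09 to 0.48, adjusted p = 0.376), and without siMLX 2 it was 0.16 (adjusted p = 0.821). ARRDC4 measured 49.2, 62.3 and 47.1 CPM in siControl, 14.1, 16.8 and 6.48 CPM in siMondoA, and 13.7, 40.2 and 11.05 CPM in siMLX. Again siMLX 2 was the highest of the 6, and the direct difference for ARRDC4 was -0.80 (95% interval -1.82 to 0.22, adjusted p = 0.269), or 0.02 without siMLX 2 (adjusted p = 0.978). Against siControl, ARRDC4 gave -2.08 after siMondoA (adjusted p = 0.0105) and -1.28 after siMLX (adjusted p = 0.102), and -1.48 after siMLX with the replicate block (adjusted p = 0.00992). Without siMLX 2, TXNIP and ARRDC4 were each called lower than siControl after both siRNAs. HBP1, a transcriptional repressor, measured 91.9, 96.7 and 76.9 CPM in siControl, 40.9, 52.4 and 47.4 CPM in siMondoA and 42.4, 43.2 and 28.7 CPM in siMLX. HBP1 fell with both siRNAs (-0.92, adjusted p = 0.00478 after siMondoA; -1.22, adjusted p = 0.00371 after siMLX), with a direct difference of 0.30 (95% interval -0.08 to 0.68). The intervals of TXNIP and ARRDC4 leave room for differences of more than 2-fold.

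**Figure D2:**
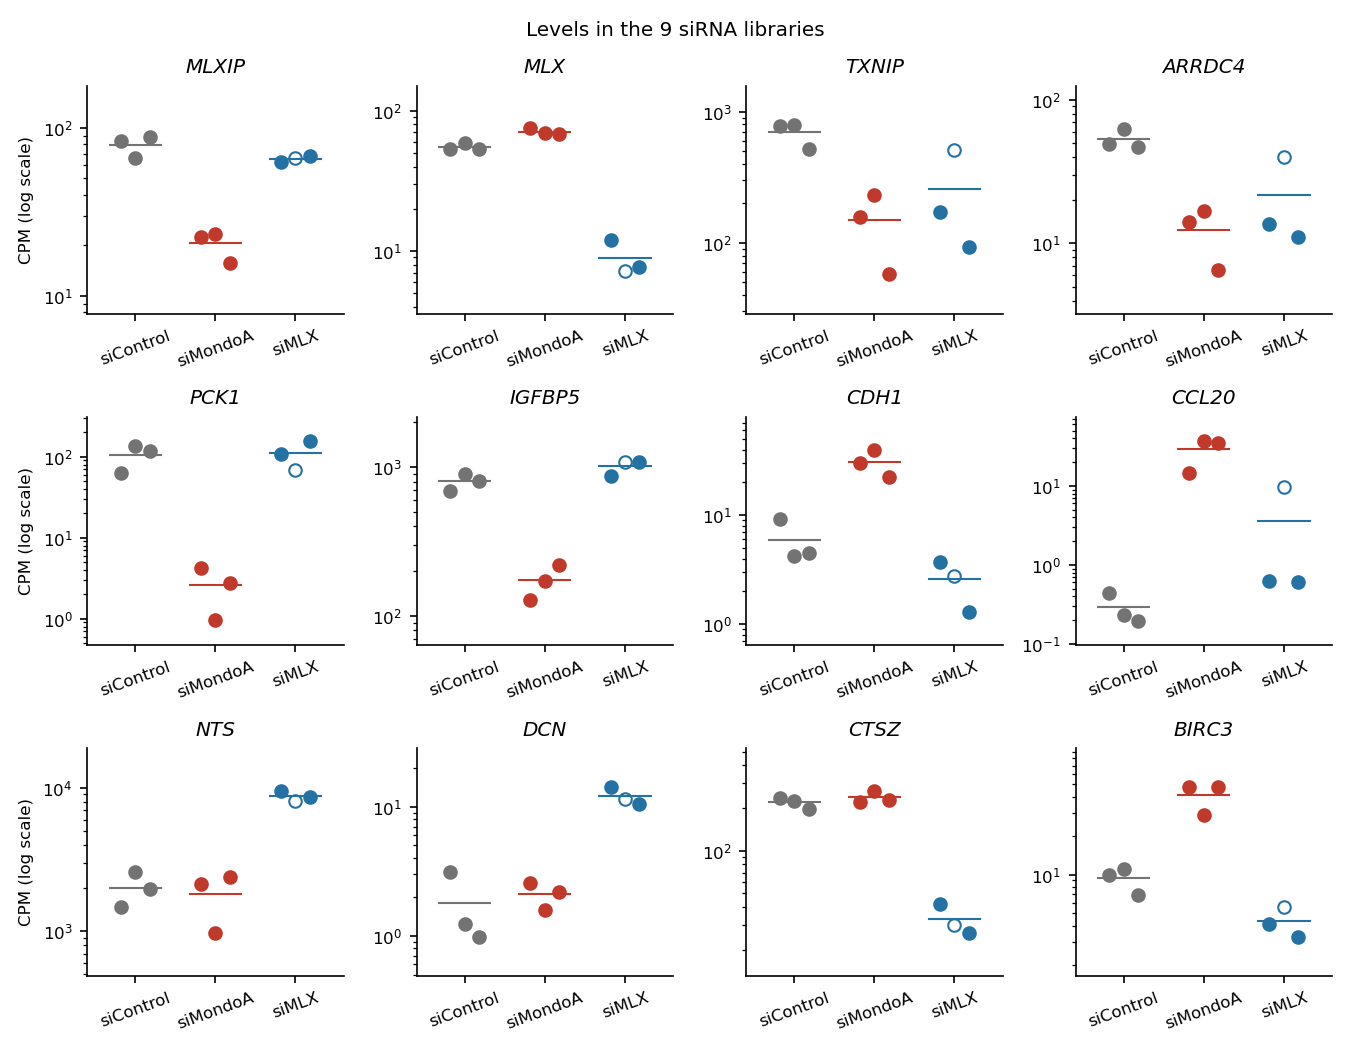
CPM on a log scale for 12 genes in the 9 siRNA libraries; points are libraries, bars are group means, and siMLX 2 is drawn open. PCK1 and IGFBP5 are low in the 3 siMondoA libraries, NTS and DCN are high and CTSZ low in the 3 siMLX libraries, and BIRC3 lies above siControl after siMondoA and below it after siMLX.

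The promoter windows of 4 genes are shown because they stand for 3 patterns: TXNIP and ARRDC4 are targets of the heterodimer, BIRC3 moved in opposite directions, and NTS rose with siMLX. The sequences are from RefSeq (GRCh38.p14) and cover 250 bases before to 50 bases after the transcript start, 5′ to 3′ on the gene's strand, at chr1:145996530-145996829 (minus), chr15:97960453-97960752 (plus), chr11:102317234-102317533 (plus) and chr12:85874045-85874344 (plus). Capitals mark exact CACGTG, an E-box core that MLX heterodimers bind.
TXNIP: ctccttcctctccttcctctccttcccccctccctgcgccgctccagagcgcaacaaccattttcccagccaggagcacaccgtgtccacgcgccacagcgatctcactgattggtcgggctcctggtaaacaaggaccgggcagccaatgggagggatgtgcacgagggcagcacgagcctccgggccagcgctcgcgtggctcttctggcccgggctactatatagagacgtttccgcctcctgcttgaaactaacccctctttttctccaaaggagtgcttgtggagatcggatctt
ARRDC4: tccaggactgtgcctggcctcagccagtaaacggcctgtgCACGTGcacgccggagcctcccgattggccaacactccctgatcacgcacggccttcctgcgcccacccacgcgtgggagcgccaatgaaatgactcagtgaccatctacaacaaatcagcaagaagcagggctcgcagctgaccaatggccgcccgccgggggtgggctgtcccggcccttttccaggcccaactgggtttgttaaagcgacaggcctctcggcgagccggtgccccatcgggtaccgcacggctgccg
BIRC3: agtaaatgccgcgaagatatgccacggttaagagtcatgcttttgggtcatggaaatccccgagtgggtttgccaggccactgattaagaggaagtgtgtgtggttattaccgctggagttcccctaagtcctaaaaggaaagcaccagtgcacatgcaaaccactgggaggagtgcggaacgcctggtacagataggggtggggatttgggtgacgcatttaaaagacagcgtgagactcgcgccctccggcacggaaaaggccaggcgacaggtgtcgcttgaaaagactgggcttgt
NTS: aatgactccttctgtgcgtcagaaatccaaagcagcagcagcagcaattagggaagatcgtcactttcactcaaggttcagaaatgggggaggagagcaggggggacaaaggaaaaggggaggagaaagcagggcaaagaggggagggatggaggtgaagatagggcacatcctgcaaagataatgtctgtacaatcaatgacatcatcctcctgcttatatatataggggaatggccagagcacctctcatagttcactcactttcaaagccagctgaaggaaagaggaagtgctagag
The ARRDC4 window held 1 CACGTG, starting at base -210, and the windows of TXNIP, BIRC3 and NTS held none. The motif is its own reverse complement, so one search covers both strands, and a match does not show that a factor binds. Only exact CACGTG was searched, here and in the counts by class below. A window without it may still hold a variant E-box, so its absence does not show that a gene lacks a site.

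Promoters with CACGTG were then counted by class. Of 13001 genes tested, 9769 had a window in the table and 12.8% of these held the motif in at least 1 window. The share was 12.6% of 390 genes that fell and 13.7% of 342 that rose with siMondoA alone, and 13.8% of 123 that fell and 8.2% of 61 that rose with siMLX alone. Among genes changed the same way by both siRNAs, 6.9% of 203 that fell and 12.0% of 209 that rose held it, and none of 12 genes of the opposite class did. PCK1 and CDH1 have no window in the table. By window, 9.39% of 14287 windows of tested genes and 7.26% of all 35116 windows held the motif.

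PCK1 had the largest direct difference among genes lowered by siMondoA alone. PCK1, at 20:57561080-57568112 (plus strand), encodes cytosolic phosphoenolpyruvate carboxykinase, which starts gluconeogenesis from oxaloacetate. It measured 62.2, 134 and 118 CPM in siControl, 108, 69.0 and 154 CPM in siMLX, and 4.22, 0.954 and 2.72 CPM in siMondoA. The siMLX libraries spanned much the same range as siControl, and all 3 siMondoA libraries lay far below both. The direct difference was -5.38 ± 0.49 (adjusted p = 0.000349), and -5.63 without siMLX 2 (adjusted p = 9.97e-05). Against siControl, siMLX gave 0.08 (95% interval -0.75 to 0.90), and an interval of this width does not exclude a modest change.

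Secreted and matrix proteins were among the other genes that fell with siMondoA alone. IGFBP5, a secreted binding protein for insulin-like growth factors, measured 693, 903 and 813 CPM in siControl, 873, 1088 and 1082 CPM in siMLX, and 128, 172 and 219.5 CPM in siMondoA. SPARC, a collagen-binding matrix glycoprotein, measured 85.2, 69.0 and 58.5 CPM in siControl, 98.5, 121 and 86.3 CPM in siMLX, and 26.6, 19.7 and 25.9 CPM in siMondoA. For both genes the siMondoA libraries were the lowest 3. Every siMLX library lay above the lowest siControl library for IGFBP5, and above all 3 siControl libraries for SPARC. The changes after siMLX against siControl were not called (IGFBP5 0.34, adjusted p = 0.282, and SPARC 0.52, adjusted p = 0.091). With the replicate block they were not called either (adjusted p = 0.0953 and 0.0568). The direct differences were -2.55 ± 0.20 for IGFBP5 (adjusted p = 0.000179) and -2.08 ± 0.18 for SPARC (adjusted p = 0.00033).

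PXYLP1, a phosphatase of proteoglycan synthesis, fell to 1.56, 1.43 and 1.68 CPM in siMondoA from 9.15, 13.3 and 11.9 CPM in siControl, against 8.58, 7.9997 and 12.0 CPM in siMLX (direct difference -2.60, adjusted p = 0.00035). FAM105A fell to 9.45, 2.54 and 7.13 CPM in siMondoA from 65.5, 46.1 and 51.8 CPM in siControl. The siMLX libraries were in between for FAM105A, at 32.7, 18.4 and 31.6 CPM, and the change against siControl was not called (-0.98, adjusted p = 0.104), though it was with the replicate block (-1.02, adjusted p = 0.0133). MLC1, a membrane protein, measured 3.83, 2.94 and 2.80 CPM in siMondoA against 23.6, 12.4 and 10.4 CPM in siMLX (-2.27, adjusted p = 0.00764). ZNF488, a zinc-finger protein, also fell with siMondoA (direct difference -2.27, adjusted p = 0.0228), but that call was lost when siMondoA 2, siMondoA 3, siMLX 1 or siMLX 3 was left out (adjusted p = 0.0753, 0.0664, 0.071 and 0.0867), and 1 siMLX library, siMLX 2, was low at 2.08 CPM.

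In the other direction, CDH1, SERPINB2, OLR1 and ALDH1A2 rose with siMondoA alone. CDH1, at 16:68737225-68835548 (plus strand), encodes E-cadherin, the adhesion protein of epithelial junctions. It measured 9.15, 4.26 and 4.50 CPM in siControl, 29.9, 39.8 and 22.6 CPM in siMondoA, and 3.71, 2.77 and 1.30 CPM in siMLX. The siMLX libraries were the lowest 3 of the 9 and the siMondoA libraries the highest 3. The direct difference was 3.58 ± 0.40 (adjusted p = 0.000913), and the change after siMLX against siControl was -1.20 (95% interval -2.11 to -0.30), which did not pass after adjustment (adjusted p = 0.096). With the replicate block the fall of CDH1 after siMLX was called (-1.22, adjusted p = 0.0311), which would place the gene in the opposite class.

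SERPINB2, an inhibitor of plasminogen activators, had 2, 1 and 2 reads in siControl and 1, 0 and 4 in siMLX, against 78, 216 and 102 in siMondoA. OLR1, a receptor for oxidised LDL, had 0, 2 and 0 reads in siControl and 4, 9 and 0 in siMLX, against 77, 160 and 214 in siMondoA. Both genes were at or near the floor outside siMondoA, so their fitted direct differences of 6.19 (SERPINB2, adjusted p = 0.000587) and 5.06 (OLR1, adjusted p = 0.00185) depend on the prior count. Exons of SERPINB2 overlap those of SERPINB10 on the same strand over 19.9% of their length, so some reads could belong to either gene. ALDH1A2, which makes retinoic acid, measured 7.74, 8.66 and 6.64 CPM in siMondoA, 1.24, 1.31 and 0.991 CPM in siMLX and 0.800, 0.698 and 0.587 CPM in siControl (direct difference 2.70 ± 0.23, adjusted p = 0.000306).

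Calls for CCL20, GJB2 and C15orf48 were not kept in every leave-one-out fit, though in each gene the 3 siMondoA libraries lay above the 3 siMLX libraries. CCL20, a chemokine for lymphocytes and dendritic cells, measured 14.6, 37.3 and 34.9 CPM in siMondoA, 0.619, 9.69 and 0.610 CPM in siMLX and 0.444, 0.233 and 0.196 CPM in siControl. siMLX 2 was the only siMLX library well above siControl, where CCL20 lay near the floor. The CCL20 change after siMLX against siControl was 3.67 (adjusted p = 0.0853), and 3.39 with the replicate block (adjusted p = 0.0463). The direct difference was 2.97 ± 0.78 (adjusted p = 0.032), and 5.54 without siMLX 2 (adjusted p = 0.000164). The CCL20 call was lost in 7 of the 9 leave-one-out fits, at an adjusted p of 0.0504 to 0.0913 without siMondoA 2, siMondoA 3, siMLX 1, siMLX 3 or any siControl library. GJB2, the gap-junction protein connexin 26, measured 4.77, 19.1 and 9.37 CPM in siMondoA and 0.707, 2.77 and 0.914 CPM in siMLX (2.89, adjusted p = 0.011; 0.0509 without siMLX 3, and a difference of 3.75 without siMLX 2). C15orf48 measured 6.95, 13.9 and 6.72 CPM in siMondoA and 0.531, 2.46 and 0.152 CPM in siMLX (3.10, adjusted p = 0.0126; 0.0503 without siMLX 1, and a difference of 4.76 without siMLX 2), and 32.5% of its exon length overlaps other genes.

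Genes that rose with siMLX alone included NTS, DCN, PON1, SUSD2, NOX5 and BANK1. NTS, at 12:85874295-85882992 (plus strand), encodes the neuropeptide neurotensin. It measured 1488, 2580.1 and 1977 CPM in siControl, 2137, 979.7 and 2372 CPM in siMondoA and 9480.1, 8074 and 8629 CPM in siMLX. The 3 siMLX libraries were far above the other 6, which overlapped. The direct difference was -2.25 ± 0.30 (adjusted p = 0.00205), -2.31 without siMLX 2 (adjusted p = 0.00127), and siMondoA against siControl gave -0.14 (95% interval -0.78 to 0.50).

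DCN encodes decorin, a small matrix proteoglycan that is also a fibroblast marker. It measured 3.11, 1.24 and 0.978 CPM in siControl, 2.58, 1.59 and 2.16 CPM in siMondoA and 14.2, 11.5 and 10.5 CPM in siMLX (direct difference -2.51 ± 0.36, adjusted p = 0.00297). The summed level of 6 fibroblast markers, led by LUM, was 191 to 298 CPM in siMLX, 200 to 286 CPM in siControl and 138 to 194 CPM in siMondoA, so siMLX and siControl overlapped. Of the 6, none was at 0 in all 9 libraries. Tested singly, 1 of the 6 was higher and 1 lower after siMLX against siControl, which the sum does not show. Directly, 1 was lower after siMondoA than after siMLX and none higher. Whether fibroblast content had a part in the difference was not tested. PON1, a lipid-lactone hydrolase, rose to 14.2, 16.6 and 16.1 CPM in siMLX from 2.75, 4.34 and 2.61 CPM in siControl, with 4.84, 4.13 and 8.17 CPM in siMondoA (direct difference -1.45, adjusted p = 0.00782). SUSD2 (-2.17, adjusted p = 0.00128), NOX5, a calcium-activated NADPH oxidase (-1.27, adjusted p = 0.00916), and BANK1, a B-cell adaptor (-1.49, adjusted p = 0.0123), each differed in the same direction.

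Genes that fell with siMLX alone included CTSZ, EIF3M, MAPRE1, SLC22A23 and TRANK1. CTSZ, a lysosomal cysteine protease (cathepsin Z), measured 234, 225 and 198 CPM in siControl, 222, 265 and 226 CPM in siMondoA and 41.9, 30.2 and 26.3 CPM in siMLX. EIF3M, a subunit of translation initiation factor eIF3, measured 424, 502 and 378 CPM in siControl, 392.5, 443 and 413 CPM in siMondoA and 134, 135 and 102 CPM in siMLX. In both genes siMondoA and siControl overlapped and siMLX did not reach either. The direct differences were 2.86 ± 0.17 for CTSZ (adjusted p = 3e-05) and 1.75 ± 0.15 for EIF3M (adjusted p = 0.000274). MAPRE1, the microtubule plus-end protein EB1, differed by 1.61 ± 0.10 (adjusted p = 3e-05), SLC22A23, a membrane transporter, by 1.90 (adjusted p = 0.000913) and TRANK1 by 1.79 (adjusted p = 0.0022). Exons of EIF3M, SLC22A23 and MLX overlap genes on the other strand over 9.99%, 15.6% and 18.1% of their length, and the sources used here do not state whether strand was used in counting.

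BIRC3 had the largest difference of the 16 genes that changed in opposite directions. BIRC3, at 11:102317450-102339403 (plus strand), encodes cIAP2, an inhibitor of apoptosis and ubiquitin ligase of NF-kB signalling. It measured 9.95, 11.1 and 6.98 CPM in siControl, 47.4, 29.1 and 47.95 CPM in siMondoA and 4.16, 5.62 and 3.28 CPM in siMLX. The 3 groups did not overlap. BIRC3 rose by 2.16 with siMondoA (adjusted p = 0.000609) and fell by 1.09 with siMLX (adjusted p = 0.0378), a direct difference of 3.25 ± 0.27 (adjusted p = 0.000274).

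The next largest of the opposite class that passed the expression filter was LRRC8B, a subunit of the volume-regulated anion channel. LRRC8B measured 132, 128 and 164 CPM in siMondoA, 32.5, 43.0 and 24.6 CPM in siMLX and 71.1, 80.7 and 74.3 CPM in siControl (direct difference 2.08, adjusted p = 0.000349). MMP2, a gelatinase, measured 32.3, 37.1 and 35.3 CPM in siMondoA, 9.90, 9.77 and 9.60 CPM in siMLX and 25.1, 20.1 and 26.7 CPM in siControl (1.84, adjusted p = 0.000179). AKR1B1, aldose reductase, measured 1060.3, 1049 and 981 CPM in siMondoA, 386, 397 and 357 CPM in siMLX and 621, 719 and 524 CPM in siControl (1.44, adjusted p = 0.000306). In these 3 genes siControl lay between the knockdowns without overlap. AVL9 (1.45, adjusted p = 0.00128) and CWC25, a splicing factor (1.32, adjusted p = 0.000532), followed.

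The other members of the opposite class, named after their values were seen, were ATP6V0A4, ESRG, TNFRSF1B, ADAM8, RAB11FIP1, APCDD1L, MBD2 and GALC, all higher with siMondoA and lower with siMLX, and TBPL1 and MCU, which went the other way. ATP6V0A4, a subunit of the vacuolar proton pump, differed by 2.64 and TBPL1, a TBP-like factor, by -1.24. MCU, ESRG, TNFRSF1B and MBD2 moved to the siMondoA class without siMLX 2. The class held 3 to 5 genes when any siControl library was left out, 5 without siMondoA 3 and 6 without siMLX 3.

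Some genes changed the same way with both siRNAs but by unequal amounts. S100A8 and S100A9, calcium-binding proteins of inflamed epithelium and myeloid cells, were higher after siMondoA than after siMLX. S100A9 measured 362, 335 and 370.3 CPM in siMondoA, 105, 129.8 and 125 CPM in siMLX and 14.9, 38.8 and 18.6 CPM in siControl (direct difference 1.57, adjusted p = 0.00647). S100A8 had 1, 2 and 2 reads in siControl, so only the direct difference is given (1.96, adjusted p = 0.00205). F3, tissue factor, measured 409, 407 and 493 CPM in siMondoA, 154, 163 and 144 CPM in siMLX and 78.7, 52.0 and 67.4 CPM in siControl (1.51 ± 0.15, adjusted p = 0.000521). DMBT1, a secreted mucosal protein, fell to 26.6, 16.5 and 21.6 CPM in siMondoA and to 64.5, 57.8 and 46.6 CPM in siMLX from 202, 259 and 167 CPM in siControl (-1.38, adjusted p = 0.00373). RASD1, a glucocorticoid-induced Ras protein, went further with siMLX, at 17.7, 24.8 and 19.4 CPM against 7.27, 5.88 and 5.36 CPM in siMondoA and 1.42, 1.24 and 0.978 CPM in siControl (-1.74, adjusted p = 0.000948).

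Gene lists were then read by their members' direct calls, beside 6.66% higher and 6.21% lower among all genes and a median over all genes of -0.00061. Calls over all genes also moved with a library left out, so list counts from those fits stand beside them. They were 22.5% of 13182 genes without siMLX 2. They numbered 2146, 994 and 751 without siMondoA 1, 2 and 3, and 734 and 670 without siMLX 1 and 3. Without siControl 1, 2 and 3 they numbered 1349, 1208 and 1304, against 1673 with all libraries. Of 20 listed MondoA and ChREBP targets, 16 were tested, with 2 higher and 2 lower (median -0.22). These calls numbered 8 without siMLX 2, 1 without siMLX 1 or siMLX 3, and 2 without siMondoA 2, siMondoA 3, siControl 2 or siControl 3. ARRDC3, another arrestin-domain gene, measured 197, 148 and 175 CPM in siMondoA, 345, 301 and 293 CPM in siMLX and 304, 384 and 256 CPM in siControl (-0.85 ± 0.16, adjusted p = 0.00887). SCD, which desaturates fatty acids, was lower after siMondoA (-0.60, adjusted p = 0.0119; 0.0501 without siMLX 1 and 0.0544 without siMLX 3). HK2, a hexokinase, was higher (0.51, adjusted p = 0.0327), but not when siMondoA 2, siMondoA 3, siMLX 1, siMLX 3, siControl 2 or siControl 3 was left out (adjusted p = 0.0509 to 0.104). KLF10, a zinc-finger repressor, was higher (0.90, adjusted p = 0.042), but among the leave-one-out fits held only without siMLX 2 or siMondoA 1 (adjusted p = 0.0646 to 0.143 in the other 7).

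Of 13 genes of the MYC network, 12 were tested and 2 were called, the targeted genes MLX and MLXIP; 4 were called without siMondoA 1 and 7 without siMLX 2. MYC, the oncogenic transcription factor, measured 503, 469.6 and 495 CPM in siMondoA and 580.5, 599 and 732 CPM in siMLX, without overlap. Its direct difference did not pass the test (-0.38, adjusted p = 0.0585). It passed without siMLX 2 (adjusted p = 0.0409) and with the DESeq2 Wald test (-0.38, adjusted p = 0.0236). Against siControl (mean 635 CPM), MYC fell with siMondoA (-0.38, adjusted p = 0.0385), and siMLX gave 0.004 (adjusted p = 0.986). MAX, the partner of MYC, differed by -0.11 (adjusted p = 0.502). MLXIPL, which encodes ChREBP, measured 5.0005, 30.5 and 8.57 CPM in siMondoA and 4.16, 6.38 and 2.59 CPM in siMLX, so the groups overlapped and siMondoA 2 was high (1.74, adjusted p = 0.0752). The direct difference of MLXIPL passed without siMondoA 1 (adjusted p = 0.017) and without siMLX 2 (adjusted p = 0.0426). Against siControl (mean 4.22 CPM), MLXIPL rose with siMondoA (1.79, adjusted p = 0.0451), and siMLX gave 0.04 (adjusted p = 0.976).

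The integrated stress response was the list whose count of calls moved most with 1 library. It is the program led by ATF4 that cells run when amino acids are short or translation initiation is held back. All 43 listed genes were tested. Against siControl, siMondoA raised 33, beside 14.2% of all genes. For siMLX 1 was raised, beside 3.72% of all genes, or 9 with the replicate block. The direct comparison called 1 higher and 1 lower, with a median of 0.81, and 14 higher and 1 lower with the replicate block. The per-library medians above the siControl mean were 1.04, 2.46 and 1.82 (log2) in siMondoA and 0.09, 1.87 and 0.21 in siMLX, so siMLX 2 lay within the siMondoA range and the other siMLX libraries near siControl. Without siMLX 2, 35 were higher and 1 was lower (median 1.60), beside 12.6% and 9.91% of all genes. Leaving out any of the remaining 8 libraries gave at most 4 called genes, all higher, without siMondoA 1.

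CHAC1, a glutathione-degrading enzyme, DDIT3, the pro-apoptotic factor CHOP, and SESN2, an inhibitor of mTORC1, show the split and were chosen after their values were seen. CHAC1 measured 80.5, 106 and 72.8 CPM in siMondoA, 0.708, 102 and 1.83 CPM in siMLX and 0.711, 1.40 and 0.717 CPM in siControl. DDIT3 measured 68.4, 99.5 and 99.9 CPM in siMondoA and 9.82, 94.8 and 8.53 CPM in siMLX. SESN2 measured 78.8, 125 and 97.8 CPM in siMondoA and 5.31, 51.5 and 4.42 CPM in siMLX, with a siControl mean of 9.27 CPM. Without siMLX 2, SESN2 was in the opposite class, higher than siControl after siMondoA and lower after siMLX. In all 3 genes siMLX 2 stood alone within its group. Their direct differences were 1.30, 1.24 and 2.29 with all libraries (adjusted p = 0.457, 0.272 and 0.0611) and 6.05, 3.28 and 4.37 without siMLX 2 (adjusted p = 2.06e-05, 9.97e-05 and 2.06e-05). With the replicate block DDIT3 and SESN2 passed (adjusted p = 0.0422 and 0.00953). The genes called with all libraries and no block were CEBPB, a stress-induced transcription factor (0.72, adjusted p = 0.0496), and ALDH18A1, of proline synthesis (-0.41, adjusted p = 0.0478). Neither call is firm: CEBPB held only without siMLX 2 or siMondoA 1 and ALDH18A1 only without siMLX 2 among the 9 leave-one-out fits (adjusted p up to 0.162 and 0.168).

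**Figure D3:**
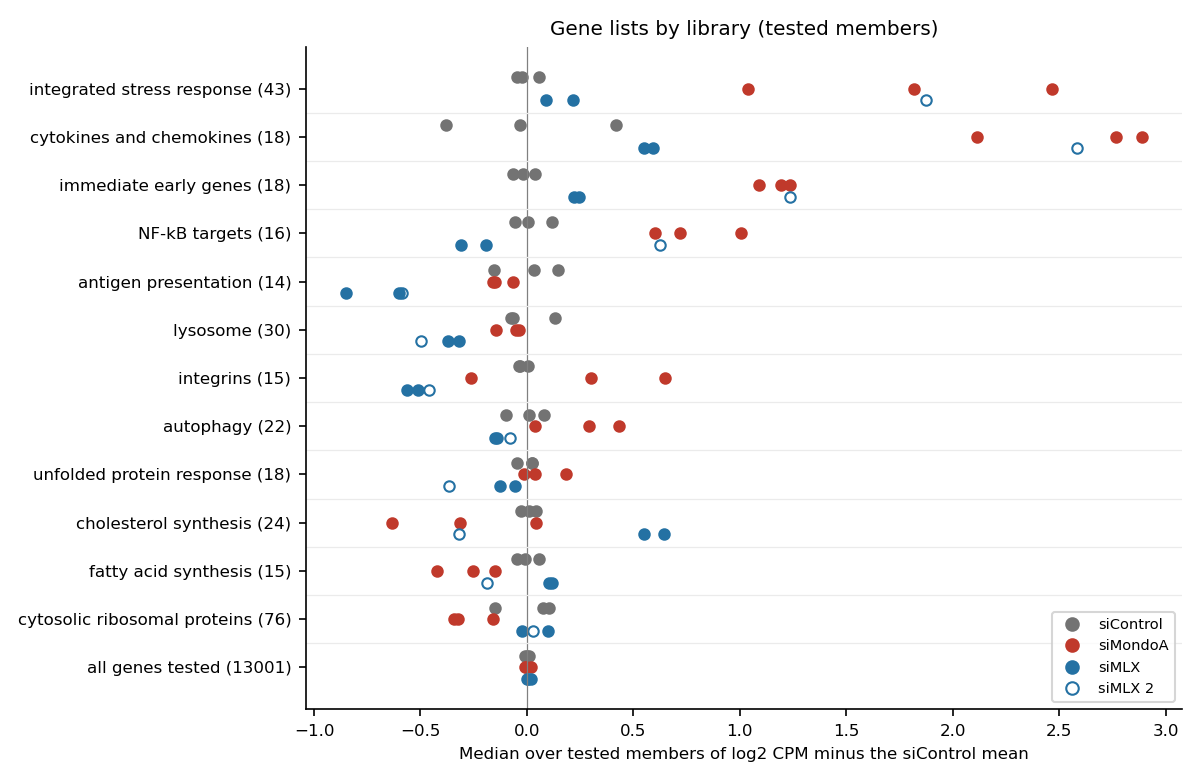
Median over the tested members of each list of log2 CPM minus the siControl mean, 1 point per library, with siMLX 2 drawn open and the number of tested genes in brackets. For the integrated stress response siMLX 2 lies at 1.87 among the siMondoA libraries, whereas for antigen presentation the 3 siMLX libraries lie together at -0.85 to -0.59.

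Of 16 NF-kB targets, 7 were higher after siMondoA and none lower (median 0.81), and without siMLX 2 these were 10 and none. The count fell to 3 without siMondoA 3, 3 without siMLX 1 and 2 without siMLX 3. NFKB1, the p105 and p50 subunit, measured 59.7, 63.8 and 77.5 CPM in siMondoA, 24.1, 42.2 and 25.8 CPM in siMLX and 37.4, 39.9 and 39.9 CPM in siControl (1.12, adjusted p = 0.00668). Without siMLX 2, NFKB1 moved to the opposite class. NFKB2, the p100 and p52 subunit, measured 53.9, 82.7 and 76.8 CPM in siMondoA and 19.5, 44.3 and 17.3 CPM in siMLX (1.39, adjusted p = 0.0177; 1.95 without siMLX 2, adjusted p = 0.000245; adjusted p = 0.0525 to 0.0671 without siMondoA 2, siMondoA 3, siMLX 1 or siMLX 3). NFKBIA, the inhibitor IkB-alpha, was higher by 0.62 (adjusted p = 0.0111; 0.0517 without siMLX 3). In each of these 3 genes the knockdown groups did not overlap, and siMLX 2 was the highest siMLX library.

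Of 18 cytokine and chemokine genes tested, 3 were higher (median 1.03), 13 without siMLX 2 and 10 with the replicate block. No cytokine gene passed when siMondoA 2, siMondoA 3, siMLX 1, siMLX 3, siControl 1 or siControl 3 was left out. IL1B, interleukin 1 beta, measured 276, 1282 and 1093 CPM in siMondoA, 57.2, 364 and 87.6 CPM in siMLX and 44.3, 81.2 and 67.0 CPM in siControl. Because siMLX 2 lay above siMondoA 1, the groups overlapped, and the difference of 2.38 (adjusted p = 0.0477) was lost without siMondoA 2, siMondoA 3, siMLX 1, siMLX 3 or any siControl library (adjusted p = 0.0666 to 0.149). Without siMLX 2 the IL1B difference was 3.61 (adjusted p = 0.00236). Of 18 immediate early genes, 1 was higher, and 11 higher and 1 lower without siMLX 2, against 3 higher without siMondoA 1. The gene called with all libraries was FOSL1, an AP-1 subunit, at 67.0, 104 and 94.8 CPM in siMondoA and 24.9, 54.6 and 34.1 CPM in siMLX (1.22, adjusted p = 0.015; 0.0543 without siMondoA 3 and 0.0625 without siMLX 3).

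Of 14 antigen presentation genes tested, 7 were higher after siMondoA than after siMLX and none lower (median 0.60). Against siControl, siMLX lowered 10 (11 with the replicate block) and raised none, beside 4.69% and 3.72% of all genes. In siMondoA 3 were lowered and none raised, beside 12.9% and 14.2% of all genes. Without siMLX 2, 9 were higher; 4 were without siMondoA 3. HLA-B, a class I heavy chain, measured 188, 178 and 151 CPM in siControl, 154, 212 and 161 CPM in siMondoA and 58.2, 73.9 and 52.1 CPM in siMLX. B2M, the class I light chain, measured 1837, 1854 and 1537 CPM in siControl, 1635, 1686 and 1516 CPM in siMondoA and 1113, 995 and 831 CPM in siMLX. For both, siMLX lay below the overlapping siControl and siMondoA libraries, with direct differences of 1.52 ± 0.17 (HLA-B, adjusted p = 0.000893) and 0.72 ± 0.13 (B2M, adjusted p = 0.00707). TAP1, of the peptide transporter (0.72, adjusted p = 0.00159), and HLA-C (0.77, adjusted p = 0.00521) were also higher. Class I genes are near-identical, so reads of HLA-B and HLA-C may be split between them.

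Of 30 lysosomal genes tested, 6 were higher after siMondoA and none lower (median 0.29). Against siControl, siMLX lowered 10 and raised none (12 and 1 with the replicate block), beside 4.69% and 3.72% of all genes. In siMondoA 5 were lowered and 4 raised, close to the shares of 12.9% and 14.2% over all genes. Without siMLX 2, 9 were higher, and 3 were without siMondoA 3, siMLX 3 or siControl 2. PSAP, the precursor of saposins, measured 905, 753 and 726 CPM in siControl, 775, 1143 and 951 CPM in siMondoA and 401, 429 and 365 CPM in siMLX (direct difference 1.26 ± 0.15, adjusted p = 0.00128). SMPD1, acid sphingomyelinase, differed by 1.24 (adjusted p = 0.00649). Of 12 cathepsins, 4 were higher and 2 lower, led by CTSZ. CTSD, cathepsin D, was higher by 0.95 (adjusted p = 0.00487), though 52.7% of its exon length overlaps other genes. Of 22 autophagy genes, 6 were higher and none lower, and 11 without siMLX 2. The autophagy count was at most 3 without siMondoA 2, siMondoA 3, siMLX 1, siMLX 3 or any siControl library. Of 18 genes of the unfolded protein response, 6 were higher and none lower, and 7 were higher and 1 lower without siMLX 2. That count was 1 without siMondoA 2 or siMondoA 3, 2 without siMLX 3 and 0 without siMLX 1. Against siControl, siMondoA raised 1 of the 18 and lowered none, beside 14.2% and 12.9% of all genes. The siMLX group had 1 lowered (2 with the replicate block) and none raised, beside 4.69% and 3.72% of all genes.

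Of 15 integrin genes tested of 24 listed, 6 were higher after siMondoA and 1 lower (median 0.60), against 7 and 1 without siMLX 2. ITGA6, the laminin-binding alpha 6 chain, measured 287, 235 and 242 CPM in siControl, 523, 443 and 536 CPM in siMondoA and 246, 179 and 212 CPM in siMLX (1.24 ± 0.14, adjusted p = 0.00113). ITGB8, which activates latent TGF-beta with ITGAV, measured 43.2, 56.5 and 43.0 CPM in siControl, 75.5, 127 and 104 CPM in siMondoA and 28.9, 34.2 and 21.3 CPM in siMLX (1.86 ± 0.22, adjusted p = 0.00128). In ITGB8 the 3 groups did not overlap, while in ITGA6 siMLX and siControl did. ITGA2 (0.95, adjusted p = 0.0032) and ITGAV (1.10, adjusted p = 0.00643) were higher too. After siMLX against siControl, ITGB8, ITGA2 and ITGAV were not called (-0.76, -0.40 and -0.60, adjusted p = 0.0599, 0.0974 and 0.0772). With the replicate block their falls were called (-0.76, -0.40 and -0.61, adjusted p = 0.0134, 0.0432 and 0.00662), which would place them in the opposite class.

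Of 20 epithelial genes, 3 were higher and none lower (median -0.0098), led by CDH1, close to the 12.9% of all genes called. In the fits without siMondoA 3, siMLX 1 or siMLX 3, 1 was called, and calls over all genes fell as well. Without siMLX 2, 5 were called, close to the 22.5% of all genes. Of 17 mesenchymal genes, 3 were higher and 2 lower, MMP2 among the first and SPARC among the second; 3 were called without siMLX 1 or siMLX 3 and 9 without siMLX 2. Of 17 collagens tested, 4 were lower and none higher (median -0.36), with 1 lower without siMondoA 3 or siMLX 1 and 2 without siMondoA 2, siControl 2 or siControl 3. COL12A1, a fibril-associated collagen, measured 533, 539 and 603 CPM in siMLX, 277, 363 and 373 CPM in siMondoA and 318, 321 and 389 CPM in siControl (-0.73, adjusted p = 0.00916). Of 11 genes of the IGF binding protein list, 2 were higher and 4 lower (3 called without siMLX 1), with IGFBP6 at 39.5, 33.8 and 31.0 CPM in siMondoA and 92.0, 69.5 and 70.3 CPM in siMLX (-1.15, adjusted p = 0.00299). Of 9 plasminogen system genes, 3 were higher and none lower, among them F3 and SERPINB2; 6 were called without siMondoA 1 and 5 without siMLX 2.

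Among sterol genes most calls ran the other way. Of 24 cholesterol synthesis and uptake genes, 7 were lower after siMondoA and 1 was higher (median -0.67). These were 14 and 1 without siMLX 2, and also with the replicate block. The number lower was 13 without siMondoA 1, 1 without siMondoA 3, siMLX 1 or siMLX 3, 2 without siMondoA 2, and 4, 3 and 4 without siControl 1, 2 and 3. Library medians above the siControl mean were 0.55, -0.32 and 0.65 in siMLX and 0.04, -0.63 and -0.31 in siMondoA, so siMLX 2 again lay among the siMondoA libraries. MSMO1, a sterol oxidase, measured 57.5, 29.6 and 52.2 CPM in siMondoA and 160.2, 61.5 and 161 CPM in siMLX (-1.46, adjusted p = 0.0204; 0.0575 to 0.0759 without siMondoA 2, siMondoA 3, siMLX 1 or siMLX 3). STARD4, a sterol carrier, was lower by a log2 difference of -0.73 (adjusted p = 0.0225; 0.0512 to 0.0755 without siMondoA 3, siMLX 1 or siMLX 3). Of 15 fatty acid synthesis genes, 4 were lower and none higher (median -0.34), with 6 lower without siMLX 2 and 0 to 2 lower without siMLX 1, siMLX 3, siControl 2 or any siMondoA library.

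Of 76 cytosolic ribosomal protein genes, 18 were lower after siMondoA and none higher (median -0.32), and 16 without siMLX 2. For siMLX against siControl edgeR called none of them, beside 8.41% of all genes. There 2 had an unadjusted p under 0.05 and DESeq2 called 1. The count was 33 with the DESeq2 Wald test, and over the leave-one-out fits it ranged from 5 without siMondoA 3 to 22 without siMondoA 2 or siControl 3, with 6 without siMLX 1, 6 without siMLX 3, 9 without siMondoA 1, 10 without siControl 1 and 11 without siControl 2. RPL11, a large-subunit protein, measured 1056, 1090.4 and 852 CPM in siControl, 657, 646 and 578 CPM in siMondoA and 1075, 1019.5 and 951 CPM in siMLX. The siMondoA libraries were the lowest 3 and the other groups overlapped, with a direct difference of -0.70 ± 0.12 (adjusted p = 0.00614). RPL34 (-0.73, adjusted p = 0.0062) and RPS2 (-0.52, adjusted p = 0.00642) were lower as well, and processed pseudogenes of ribosomal protein genes could take some of their reads. NPM1, a nucleolar chaperone, was lower by a log2 difference of -0.55 (adjusted p = 0.00975).

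Of 46 respiratory chain genes, 1 was higher and 3 were lower (median -0.097). NDUFA2, of complex I, measured 34.7, 25.1 and 28.6 CPM in siMondoA, 58.8, 45.8 and 54.3 CPM in siMLX and 71.4, 71.2 and 63.3 CPM in siControl (-0.84, adjusted p = 0.00624), and COX5B, of complex IV, differed by -0.65 (adjusted p = 0.00634). Of 20 glycolytic genes, 1 was higher and 2 were lower, HK2 being the first; no glycolytic gene was called without siMondoA 3, siMLX 1 or siMLX 3, and 5 were without siMLX 2. LDHA, which makes lactate, measured 1746, 985 and 1311 CPM in siMondoA and 2988, 1849.8 and 3133 CPM in siMLX (-0.98, adjusted p = 0.0198; -1.18 without siMLX 2, adjusted p = 0.00265; adjusted p = 0.054 to 0.0774 without siMondoA 2, siMondoA 3, siMLX 1 or siMLX 3). ALDOC, an aldolase, measured 25.1, 9.54 and 19.1 CPM in siMondoA and 55.2, 30.9 and 57.9 CPM in siMLX (-1.42, adjusted p = 0.0183; 0.0589 to 0.0688 without siMondoA 3, siMLX 1 or siMLX 3). In siControl the mean of ALDOC was 25.2 CPM, and neither change against it was called. These changes were -0.50 after siMondoA (adjusted p = 0.269) and 0.93 after siMLX (adjusted p = 0.0956). Without siMLX 2, ALDOC moved to the siMLX class. CDK6, a kinase of G1 progression, was higher after siMondoA than after siMLX (0.94, adjusted p = 0.00384).

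**Figure D4:**
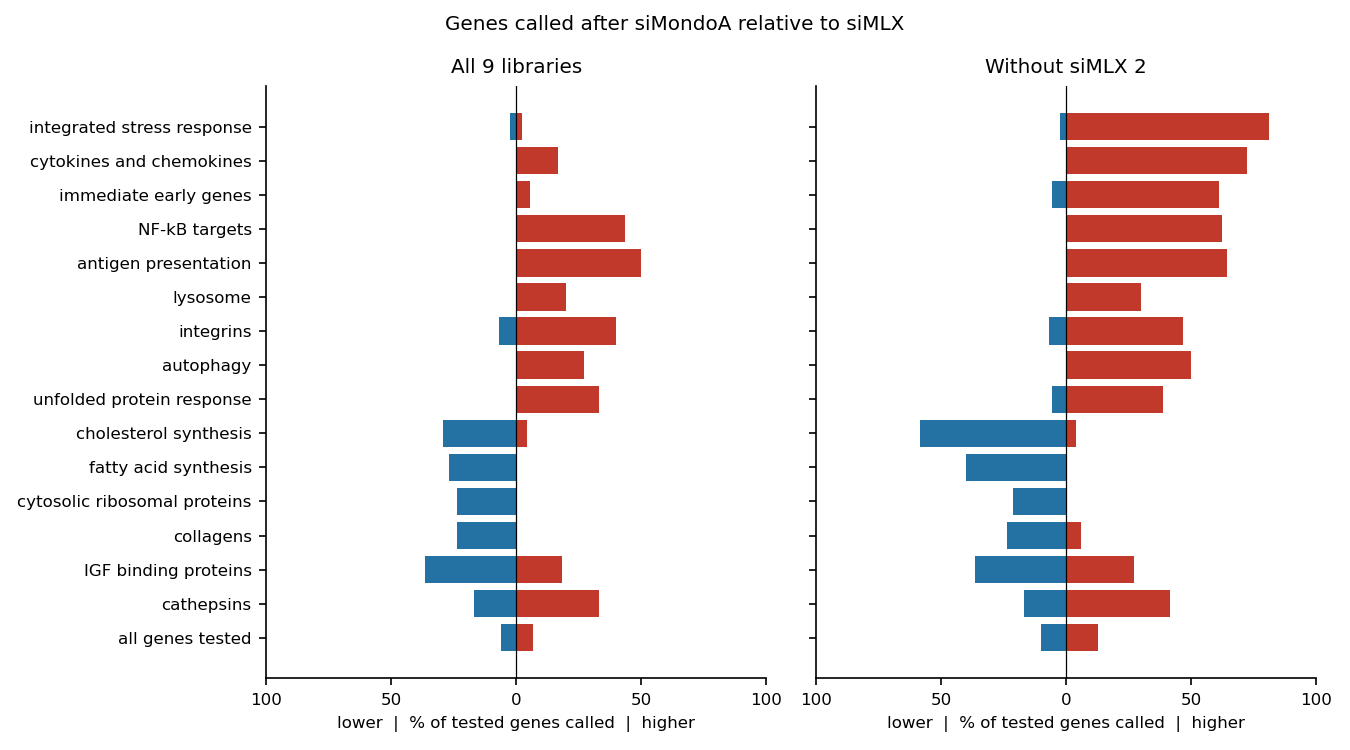
Percent of tested genes called higher (right) or lower (left) after siMondoA relative to siMLX, per list and over all genes, with all 9 libraries and without siMLX 2. The integrated stress response goes from 1 to 35 genes called higher when siMLX 2 is left out, whereas the integrins go from 6 to 7.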

How the data were processed

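PSN-1 RNA was sequenced as paired reads of 25 bases, and the authors deposited raw read counts per gene, 1 column per library. Per the submitters' processing notes reads were handled with TopHat2 2.1.0 and HTSeq 0.6.1, among other tools, and hg38 is one of the builds named. Strandedness of the counting was not known here. Deposited counts were used as they stand. The 9 siRNA libraries were fitted together so that the 3 groups share 1 estimate of spread (edgeR 4.0.16 in R 4.3.3, filterByExpr, trimmed-mean scaling, quasi-likelihood test, no replicate term, Benjamini-Hochberg adjustment). DESeq2 1.42.0, other scaling, no filter, a replicate term, the 6 libraries alone and each library left out were the alternatives. Deviations of same-numbered libraries from their group means correlated at 0.188 to 0.359 between siMLX and siControl, all above the 0.1 taken to show pairing, so values with a replicate block stand beside siMLX results against siControl where they change a call; for siMondoA not every pair passed. Steps were tested on simulated data. The authors' comparison columns were not used, nor was the drug experiment tested.

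Named genes were the 12 fixed ones (MLXIP, MLX, MLXIPL, MAX, MYC, TXNIP, ARRDC4, HBP1, PCK1, CDH1, BIRC3, NTS), the 10 largest called differences per direction with a mean of at least 4 CPM and no overlap between groups, the 6 largest per class that stayed in the class without siMLX replicate 2, and up to 4 called members per gene list with the smallest adjusted p. Others are said to be chosen after their values were seen, and some genes the rule names are not reported here. The 49 lists hold 918 genes, all matched by symbol. Groups, genes and lists were chosen with earlier results of these data known. Positions are from GENCODE v29 and promoters from RefSeq, both GRCh38.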

Additional observations from a re-analysis of the deposited data

How the results depend on the processing

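Leaving out 1 library at a time moved the counts most. Direct calls ranged from 670 (without siMLX 3) to 2970 (without siMLX 2), siMondoA calls against siControl from 1745 (without siControl 2) to 4333 (without siMLX 2), and siMLX calls from 254 (without siControl 1) to 1387 (without siMondoA 2). The siMondoA class ranged from 405 to 1863 genes, the siMLX class from 76 to 245 and the opposite class from 3 to 39. For TXNIP the direct difference ranged from -1.27 (without siMondoA 2) to 0.16 (without siMLX 2), and for ARRDC4 from -1.12 (without siMLX 3) to 0.015 (without siMLX 2), never past the threshold. Of 84 of the genes named above, 75 were called, and 58 of these were called in every leave-one-out fit and every other alternative. Many of the 84 were chosen for large called differences without overlap between groups. The same count was not made over all 1673 called genes, so 58 does not measure how stable the calls are in general. Fitting only the 6 libraries compared gave 706 direct calls, 425 siMondoA-class genes and 122 siMLX-class genes; that fit has fewer samples. The DESeq2 Wald test gave 1686 siMLX calls and 33 opposite genes. Other scaling, no filter and the limit of 0.5 on the other siRNA kept these counts over all genes, where run, within 1.5 times. Among list counts, no filter took the MYC network from 2 to 4, cytokines from 3 to 6, immediate early genes from 1 to 3 and plasminogen genes from 3 to 6. DESeq2 took the MYC network to 4, glycolysis from 3 to 5, immediate early genes to 4, lysosomal genes from 6 to 10, ribosomal proteins from 18 to 33, collagens from 4 to 7 and plasminogen genes to 7.

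Deviations of siMondoA and siMLX libraries correlated at 0.534 for replicate 1 and 0.447 for replicate 2, but at -0.11 for replicate 3. Because replicate 3 did not go along, the numbers were not treated as pairing siMondoA with siMLX in the main fit. In 3 of all 9 same-numbered pairs a library of another number correlated better. With the replicate block, direct calls were 2606, siMLX calls 1815, the siMondoA class 1472, the siMLX class 355 and the opposite class 41. Direct list counts were then 7 for the MYC network, 5 for glycolysis, 10 for cytokines, 6 for immediate early genes, 15 for the stress response (14 higher), 37 for ribosomal proteins, 15 for cholesterol genes, 6 for epithelial, 8 for mesenchymal and 7 for plasminogen genes. SESN2 (adjusted p = 0.00953), DDIT3 (0.0422), MYC (0.0305) and MLXIPL (0.0405) passed with the block. A floor of 3 counts, up to 0.267 CPM, limits SERPINB2, OLR1 and S100A8.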

Other observations

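The drug experiment of the series gives levels only, since its DMSO and SBI-477 labels were not tested here. PCK1 was at 51.9, 6.26 and 61.1 CPM in the libraries labelled DMSO and at 6.16, 16.8 and 1.15 CPM in those labelled SBI-477. TXNIP was at 145, 39.2 and 204 CPM in those labelled DMSO and at 74.6, 121 and 41.5 CPM in those labelled SBI-477. In replicates 1 and 3 both genes were lower under the SBI-477 label, while in replicate 2 both were lower under the DMSO label. Whether the labels of replicate 2 are right was not tested. CDH1 stayed at 1.06 to 3.88 CPM and NTS at 585 to 923 CPM in all 6.

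Summed levels of markers of other cell types are given without a test. The 5 acinar markers, led by PRSS1, summed to 6.40 to 23.4 CPM in siMLX, 27.04 to 43.8 CPM in siMondoA and 29.3 to 80.8 CPM in siControl, with CELA3A and CTRB1 at 0 in all 9 libraries. The 5 leukocyte markers, led by CD14, summed to 16.4 to 20.1 CPM in siMondoA, 23.5 to 27.9 CPM in siMLX and 23.98 to 25.7 CPM in siControl, with CD3E at 0 in all 9. The 5 hepatocyte markers, led by SERPINA1, summed to 189 to 262 CPM in siMondoA, 128 to 208 CPM in siMLX and 136 to 203 CPM in siControl, with TTR at 0 in all 9, so the groups overlapped. The 4 endothelial markers, led by PECAM1, summed to 14.7 to 20.9 CPM in siMondoA, 9.37 to 14.2 CPM in siMLX and 13.3 to 18.3 CPM in siControl.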
